A study of Mus musculus with 24 samples.

Results

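The genes described here are 43 interferon-stimulated genes, a list of genes that cells switch on when type I interferon binds its receptor, followed through lung macrophages of mice given bleomycin or saline. Members were taken by gene symbol from 2 deposited count tables that were joined by gene identifier. All 43 symbols were found, 0.088% of the 49022 genes that both tables hold.

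The series holds 24 libraries of polyadenylated RNA in 8 groups of 3. Bleomycin, an antibiotic that injures the lung and leads to fibrosis, was given into the trachea at 3 µg per g body weight, with phosphate-buffered saline (PBS) as control. Interstitial macrophages (IMs) were sorted as CD11b+ SiglecF- cells and alveolar macrophages (AMs) as CD11b- SiglecF+ cells. In wild-type C57BL/6J mice, IMs were collected at day 7 after PBS and at day 7 after bleomycin, with no split by a reporter. All other groups came from Spp1-EGFP knock-in reporter mice, in which EGFP marks cells that use Spp1, the gene for osteopontin. These were EGFP- and EGFP+ IMs at day 7 of bleomycin, EGFP+ IMs at day 14, EGFP+ AMs at days 14 and 30, and EGFP+ AMs at day 7 after PBS. Thus PBS was given to wild-type IMs and to reporter AMs, and no reporter IMs after PBS or wild-type AMs were analysed here. The labels do not say whether the 3 libraries of a group came from separate mice. Each p-value thus measures the spread between the replicate libraries of the groups in its fit, which may be technical.

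Library totals ran from 13450053 to 24580620 counts. Replicates of a group differed by more than sampling noise, with a chi-square per degree of freedom from 2.893 to 117, the highest between 2 of the EGFP+ IM libraries of day 14. The gates were checked on 3 genes as the count divided by the library total and multiplied by 1000000 (CPM). Spp1 averaged 517.5 CPM in EGFP- IMs and 4103 CPM in EGFP+ IMs at day 7. EGFP+ AMs after PBS carried 202 CPM of Spp1, below the EGFP- IMs, while the other EGFP+ groups averaged 4103 to 6822 CPM. Siglecf averaged 122 to 415 CPM in the AM groups and 7.42 to 25.1 CPM in the IM groups. Itgam, which encodes CD11b, averaged 218 to 379 CPM in the IM groups and 7.32 to 26.1 CPM in the AM groups. Markers of other cells were present as well. Neutrophil markers (10 genes) summed to 7933 to 9385 CPM in the wild-type PBS libraries and 4971 to 6489 CPM in the EGFP- ones. Lung epithelial markers (10 genes) summed to 4373 to 6477 CPM in wild-type IMs after PBS. In wild-type IMs after bleomycin the neutrophil sum was 1769 to 1867 CPM and the epithelial sum 137 to 178 CPM. In bulk samples, fewer cells of a type and less RNA per cell cannot be told apart.

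Type I interferons (interferon beta and the interferon alphas) are made when cells sense foreign or misplaced nucleic acid. They bind a receptor of 2 chains, Ifnar1 and Ifnar2, whose Janus kinases switch on transcription factors. Stat2 and Irf9 are subunits of the factor complex ISGF3, which binds the interferon-stimulated response element, a sequence in the promoters of many of the genes listed here. The products block viral replication and translation, sense RNA and DNA, and feed back on the pathway. Alveolar macrophages are known as a source of type I interferon in viral infection of the lung, and the response is also known from sterile injury.

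The core of that response element was read as GAAA, any 2 bases and GAAA again, on either strand, in RefSeq promoter windows of build GRCm38.p6, which run from 250 bases before to 50 bases after a gene's start. Of the 43 genes, 32 were matched to a window, and 17 of these (53.1%) held the motif, against 3.99% of all 27025 genes in the table. Counted over windows, 19 of 37 of the members' windows (51.4%) and 3.44% of all 32851 windows held it. Below are the 200 bases before the start of 6 genes, 5′ to 3′ on the gene's strand with each motif match in capitals. They show 5 genes of the list with 1 or more matches and Slfn4, the member with the highest mean CPM, whose window held no match.
Isg15: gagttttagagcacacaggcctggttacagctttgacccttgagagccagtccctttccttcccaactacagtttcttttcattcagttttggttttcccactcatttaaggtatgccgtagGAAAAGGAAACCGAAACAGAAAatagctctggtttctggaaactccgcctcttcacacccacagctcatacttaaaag
Ifit3: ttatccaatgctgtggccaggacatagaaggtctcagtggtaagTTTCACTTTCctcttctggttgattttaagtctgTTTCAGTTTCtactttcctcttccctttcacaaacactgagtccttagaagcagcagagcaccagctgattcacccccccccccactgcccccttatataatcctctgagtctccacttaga
Oas1g: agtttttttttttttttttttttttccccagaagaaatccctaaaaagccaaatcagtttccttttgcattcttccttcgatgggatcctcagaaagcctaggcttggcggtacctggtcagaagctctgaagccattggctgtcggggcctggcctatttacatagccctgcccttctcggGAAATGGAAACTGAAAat
Oas3: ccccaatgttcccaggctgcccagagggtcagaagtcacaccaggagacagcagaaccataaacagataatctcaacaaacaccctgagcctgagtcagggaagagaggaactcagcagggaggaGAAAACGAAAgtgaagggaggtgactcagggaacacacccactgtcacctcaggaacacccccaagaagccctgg
Rsad2: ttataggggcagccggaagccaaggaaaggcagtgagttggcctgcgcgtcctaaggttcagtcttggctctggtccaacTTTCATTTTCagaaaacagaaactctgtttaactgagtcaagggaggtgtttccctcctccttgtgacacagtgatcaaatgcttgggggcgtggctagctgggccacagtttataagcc
Slfn4: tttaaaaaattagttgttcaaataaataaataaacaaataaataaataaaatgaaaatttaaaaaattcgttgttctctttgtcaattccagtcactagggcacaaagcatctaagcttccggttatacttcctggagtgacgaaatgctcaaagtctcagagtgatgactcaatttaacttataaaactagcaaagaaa
The Isg15 stretch is chr4:156200819-156201018 on the minus strand, and its 3 overlapping matches began at positions -78, -72 and -66 from the start site. The Ifit3 stretch is chr19:34583329-34583528 on the plus strand, with matches on the other strand at positions -156 and -122. In Oas1g, chr5:120887614-120887813 on the minus strand, 2 overlapping matches lay at positions -18 and -12. The single matches of Oas3, chr5:120777660-120777859 on the minus strand, and Rsad2, chr12:26456453-26456652 on the minus strand, began at positions -75 and -120. The Slfn4 stretch is chr11:83174986-83175185 on the plus strand. A match describes the letters only, and the letters say nothing on binding.

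The list formed several clusters in the genome. The 6 oligoadenylate synthetase genes lay on chromosome 5, the 4 Ifit genes on chromosome 19 between positions 34550694 and 34650009, and Slfn4, Slfn5 and Slfn8 on chromosome 11. Models of 16 members overlapped another gene model, such as Slfn5 with its antisense transcript Slfn5os and Parp9 with Dtx3l, and whether counting used strand is not given in the sources used here. Reads of Ifit3 and Ifit3b, of Oas1a and Oas1g, of the Slfn genes and of Ifi204 with its neighbours may be split between near-identical copies, so the values of these single genes are uncertain. As a level per kb of exon, averaged over the 24 libraries, Ifi27l2a stood highest at 166 CPM per kb, then Bst2 at 97.1, Slfn4 at 86.2 and Isg15 at 73.4. The lowest level per kb was that of Ifi44, at 0.376 CPM per kb.

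The summed level of the 43 genes differed more between groups than within them. EGFP- IMs at day 7 of bleomycin held the highest sum, 7293 ± 109 CPM (SD, n = 3). Next came EGFP+ IMs of the same day at 3649 ± 403 CPM, wild-type IMs after bleomycin at 2980 ± 37.6 CPM and wild-type IMs after PBS at 2552 ± 75.1 CPM. EGFP+ IMs at day 14 had 1255 ± 222 CPM, EGFP+ AMs 1149 ± 88.4 CPM at day 14 and 1042 ± 10.9 CPM at day 30, and EGFP+ AMs after PBS 675 ± 24.2 CPM. The 4 groups with the highest sums did not overlap with their neighbours in this order, and neither did the PBS AMs. The libraries of EGFP+ IMs at day 14 (1038 to 1483 CPM), AMs at day 14 (1050 to 1218 CPM) and AMs at day 30 (1030 to 1050 CPM) overlapped in part. Slfn4 alone made up 20.06% of the sum in EGFP- IMs and 0.77 to 2.36% in the groups below EGFP+ IMs of day 7 and the wild-type IMs. Without Slfn4 the sum of EGFP- IMs was 5830 CPM and that of EGFP+ IMs 3141 CPM, and the order of these top groups stayed as before.

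**Figure D1:**
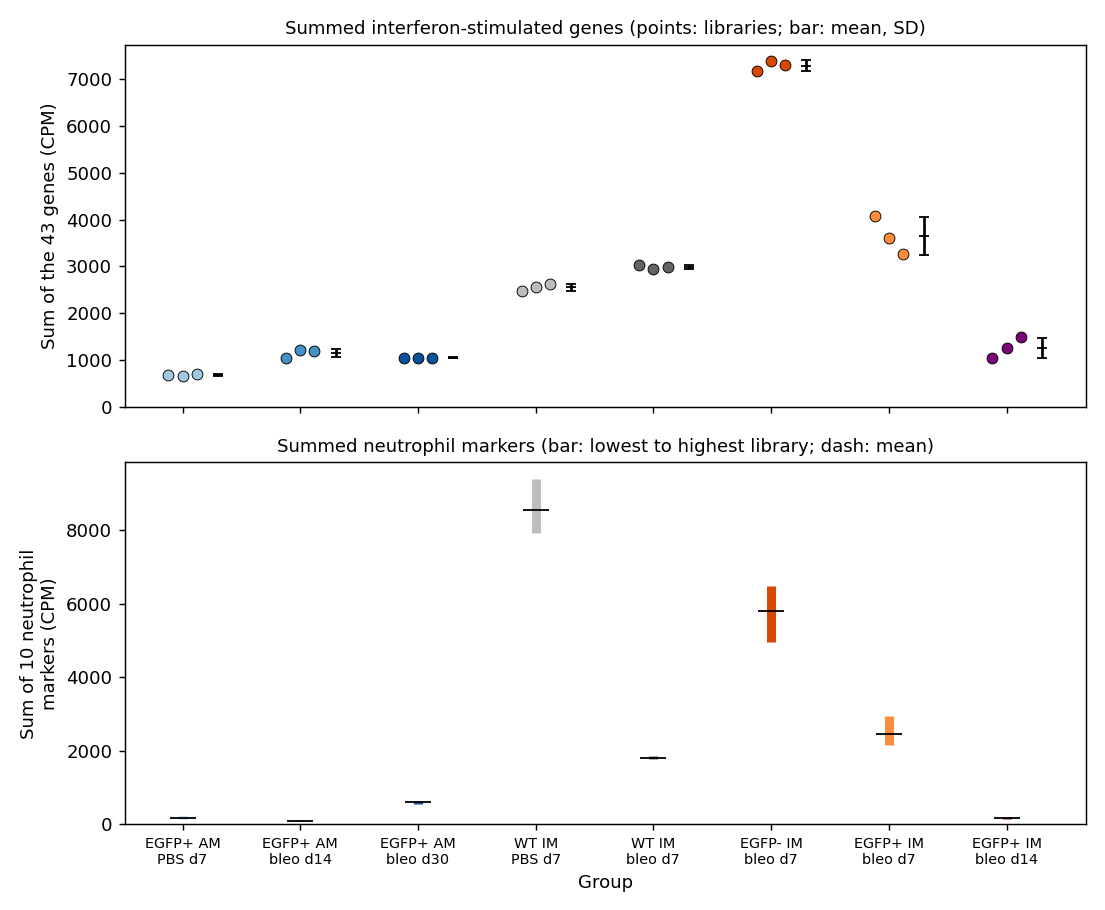
Top, the summed level of the 43 interferon-stimulated genes in CPM (y axis) in each of the 24 libraries by group (x axis), with bars for the mean and SD of 3 libraries. Bottom, the range and mean of the summed level of 10 neutrophil markers in CPM in the same groups. EGFP- IMs sit highest in the top panel at 7178 to 7395 CPM, while the neutrophil sum is highest in wild-type IMs after PBS.

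In the 3 reporter IM groups the neutrophil sum and the interferon-stimulated sum stood in the same order. The neutrophil sum averaged 5809 CPM in EGFP- IMs, 2468 CPM in EGFP+ IMs of day 7 and 163 CPM in EGFP+ IMs of day 14. Wild-type IMs after bleomycin, at 1811 CPM and 2980 CPM, lay between EGFP+ IMs of day 7 and of day 14 on both sums. The wild-type PBS group stood outside this order. It had the highest neutrophil sum of all and an interferon-stimulated sum below that of EGFP- IMs in every library. EGFP- IMs also had the lowest sum of 7 macrophage markers of all 8 groups, 5044 CPM, with Lyz2 at 2961 CPM and Adgre1 at 178 CPM. Not every macrophage marker was lowest there. Csf1r averaged 1059 CPM in EGFP- IMs, 1017 CPM in EGFP+ IMs of day 7 and 368 to 706 CPM in the AM groups. Cd68 averaged 386 CPM in EGFP- IMs and 290 CPM in wild-type IMs after PBS. The part of macrophage and neutrophil transcripts in any one difference was not tested.

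Most single members had the same highest group. For 41 of the 43, each EGFP- IM library lay above every other library of the series, which held for 6.08% of the 16687 genes with enough counts. The exceptions were Bst2, which encodes the membrane protein tetherin that holds budding viruses on the cell, and Ifi27l2a, a small induced mitochondrial protein. Both had their highest mean in wild-type IMs after bleomycin. At the other end, the PBS AMs held the lowest mean for 33 members, EGFP+ IMs of day 14 for 8 and EGFP+ AMs of day 30 for 2. The ratio of the highest to the lowest group mean ran from 2.1 for Ifi35 to 178 for Rsad2, leaving out Ifi44, whose PBS AM libraries held 2, 0 and 0 counts.

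**Figure D2:**
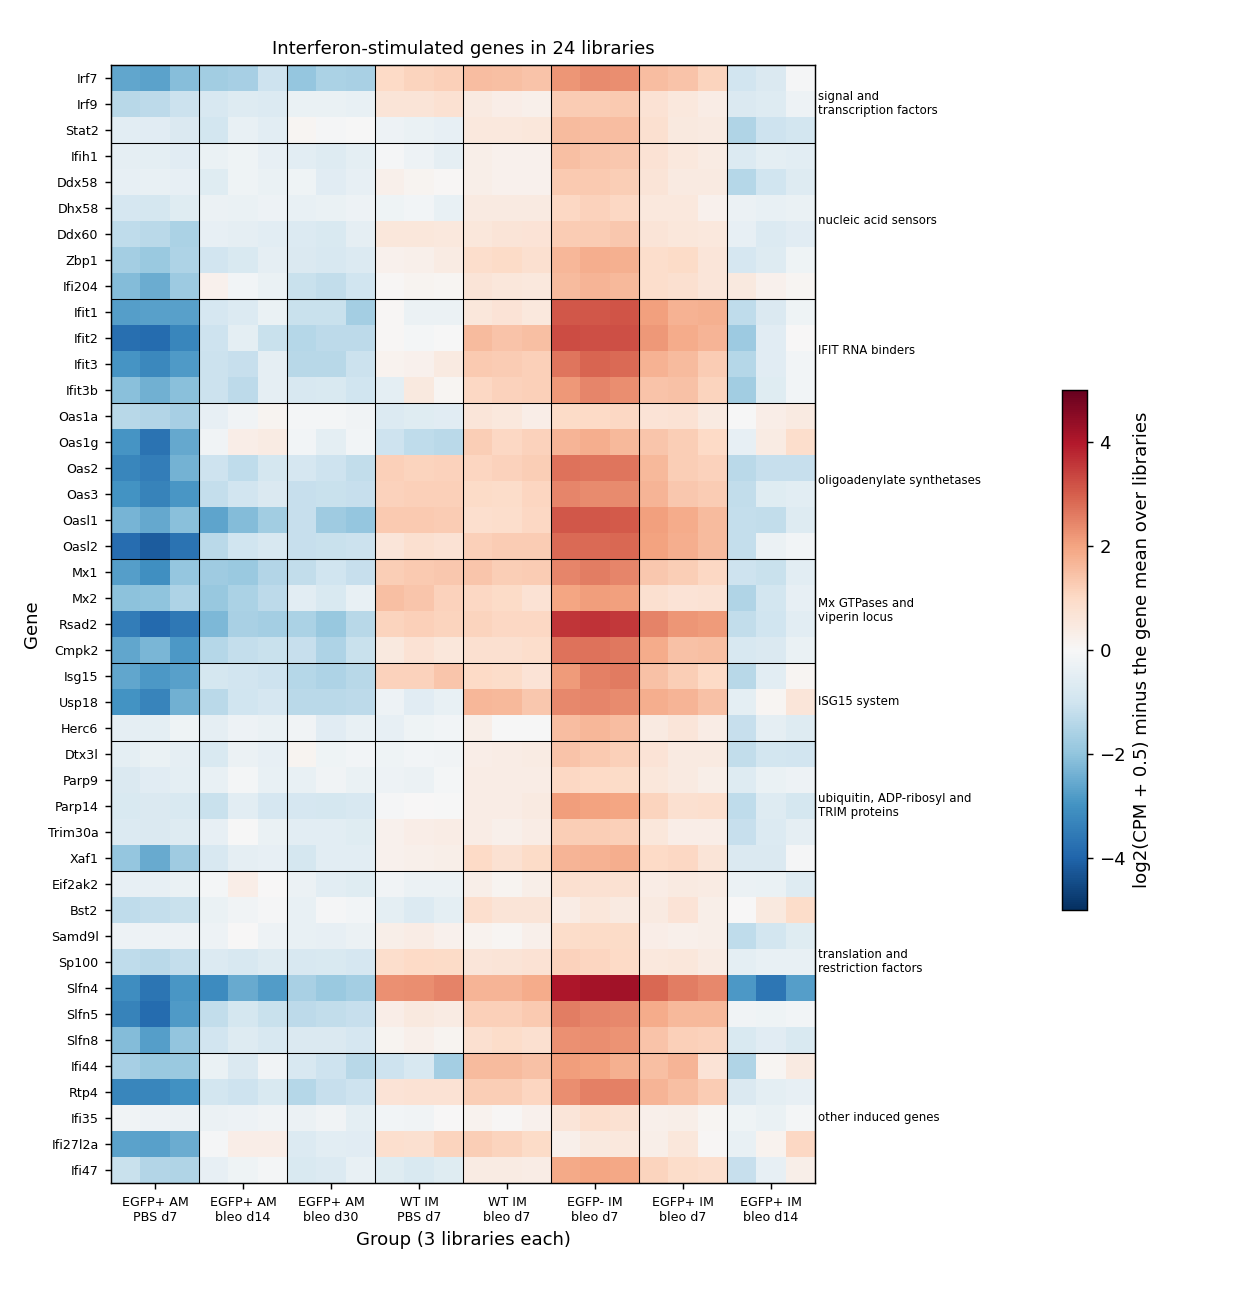
Levels of the 43 genes (rows, ordered by role) in the 24 libraries (columns, 3 per group). Color gives log2(CPM + 0.5) minus the gene's mean over all libraries, red above and blue below. The EGFP- IM columns are the reddest for 41 of the 43 genes, and the PBS AM columns hold the lowest group mean for 33.

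The 3 members with the highest mean level over all libraries were Slfn4, Parp14 and Irf7. Slfn4 encodes a Schlafen protein of myeloid cells. It measured 1383, 1485 and 1519.9 CPM in EGFP- IMs and 441, 484 and 600.2 CPM in EGFP+ IMs at day 7. In IMs of wild-type mice it measured 402, 419 and 458 CPM for PBS and 269, 273 and 303 CPM after bleomycin. The remaining groups stayed at 6.14 to 26.7 CPM in every library, so Slfn4 split the day 7 IMs from all other samples. Parp14, an ADP-ribosyltransferase, measured 427, 439 and 463 CPM in EGFP- IMs and 192, 198 and 239.8 CPM in EGFP+ IMs at day 7. In wild-type mice it measured 105, 109 and 111 CPM for PBS and 142, 142 and 149 CPM for bleomycin, with 45.0 to 75.9 CPM in every library of the other 4 groups. Irf7, the factor that amplifies interferon production, measured 355, 380.4 and 395 CPM in EGFP- IMs and 168, 204 and 221 CPM in EGFP+ IMs at day 7. In IMs of wild-type mice Irf7 measured 152, 166 and 174 CPM for PBS and 204, 219 and 221 CPM after bleomycin. It measured 39.6, 46.5 and 74.3 CPM in EGFP+ IMs of day 14, 22.4, 24.1 and 37.2 CPM in AMs of day 14, 19.9, 24.3 and 25.2 CPM in AMs of day 30 and 11.7, 12.3 and 16.9 CPM in AMs after PBS. Within every treatment and day with both gates, Irf7 was thus higher in each IM library than in each AM library.

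**Figure D3:**
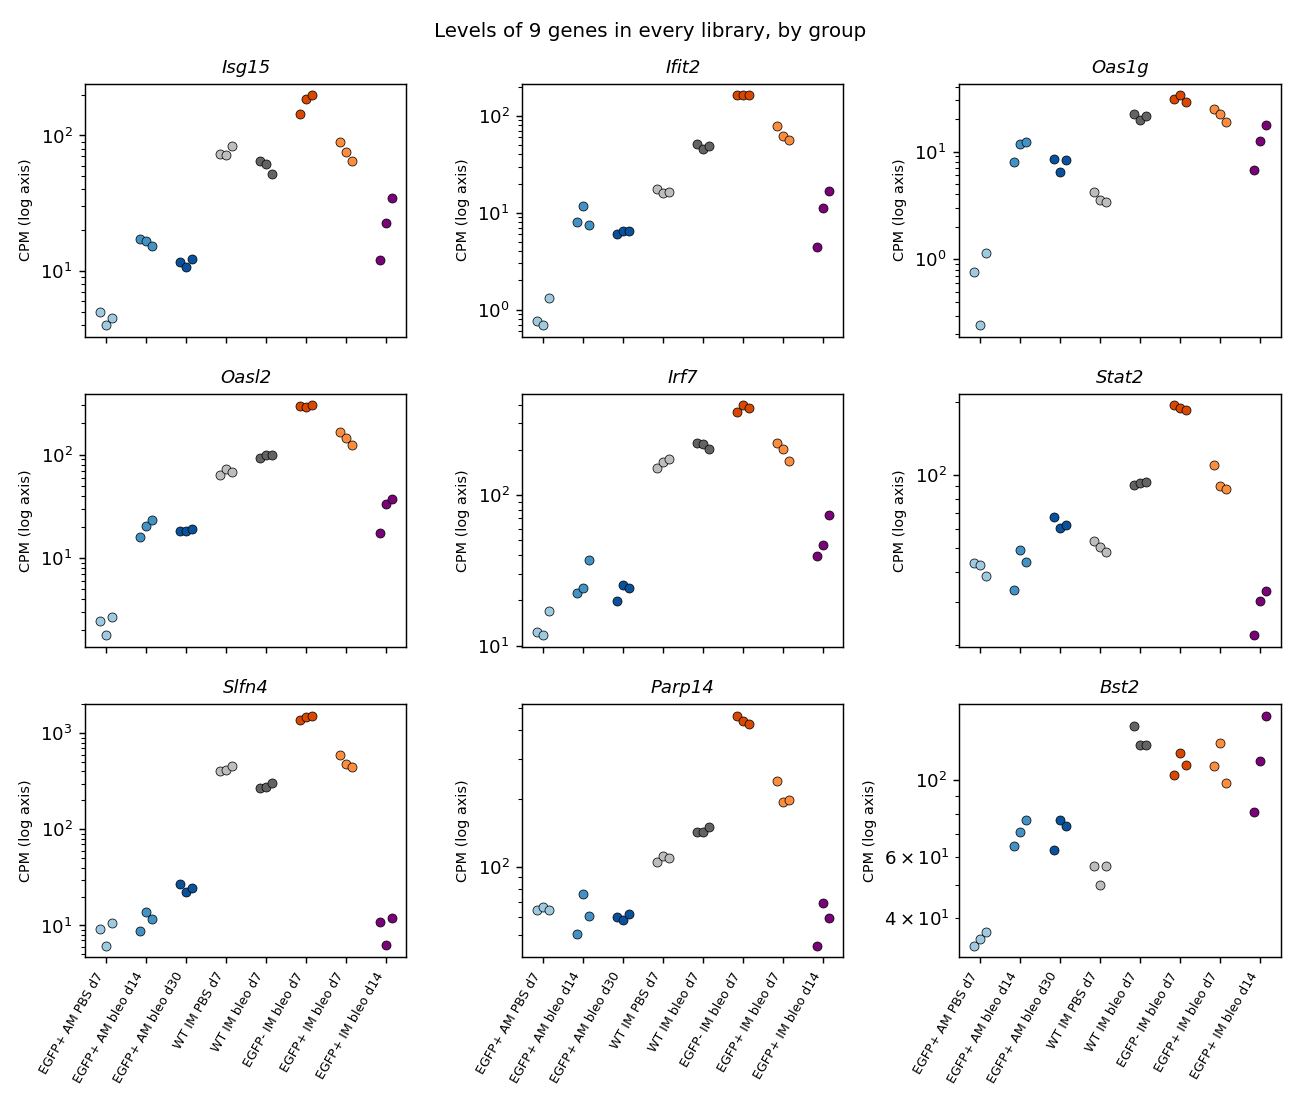
CPM on a log axis (y) of 9 interferon-stimulated genes in every library, by group (x, 3 points each). EGFP- IMs are the highest group for 8 of the 9 genes, and Bst2 is the exception.

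Wild-type IMs were compared first, bleomycin against PBS at day 7, with edgeR's quasi-likelihood test and Benjamini-Hochberg adjustment over all genes tested, as in every test below. Of the 43 genes, 27 rose and 8 fell at an adjusted p under 0.05, where 35.6% of the 15496 genes tested rose and 34.5% fell. Of those that rose, 8 did so by at least 2-fold, and no fall reached that size. The median log2 difference was 0.44, and 0.00 over all genes. All 4 Ifit genes, which encode proteins that bind viral RNA, rose, as did 4 of 6 nucleic acid sensors (Zbp1, Ifi204, Ifih1 and Dhx58). The members that fell were Irf9, Isg15, Mx2, Oas3, Oasl1, Samd9l, Slfn4 and Sp100. The list therefore did not move as a block. The oligoadenylate synthetase family includes enzymes that activate the RNA-cutting RNase L. Within this family, Oas1a, Oas1g and Oasl2 rose while Oas3 and Oasl1 fell.

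Oas1g measured 3.37, 3.54 and 4.22 CPM after PBS and 19.7, 21.3 and 22.4 CPM after bleomycin. Every bleomycin library lay above every PBS library, a log2 difference of 2.46, SE 0.14 (adjusted p = 1.74e-13). Ifit2 measured 15.8, 16.5 and 17.5 CPM after PBS and 45.5, 48.6 and 50.9 CPM after bleomycin, without overlap. Its log2 difference was 1.5 (SE 0.08, adjusted p = 2.39e-13). Bst2 measured 49.7, 56.4 and 56.7 CPM after PBS and 126, 126 and 143 CPM after bleomycin, again without overlap, with a log2 difference of 1.24, SE 0.07 (adjusted p = 3.54e-13). Usp18, a protease that removes Isg15 from proteins and dampens the receptor, rose from 4.71, 5.35 and 6.01 CPM to 19.2, 23.3 and 23.7 CPM. Isg15, a ubiquitin-like modifier, moved the other way, from 72.2, 73.1 and 84.0 CPM after PBS to 51.5, 61.1 and 64.7 CPM after bleomycin. The groups did not overlap for Isg15, and the log2 difference was -0.42, SE 0.08 (adjusted p = 0.000336). Slfn4 changed by -0.65, SE 0.06 on the log2 scale (adjusted p = 6.91e-10), Parp14 by 0.37, SE 0.05 (adjusted p = 1.71e-06) and Irf7 by 0.34, SE 0.06 (adjusted p = 1.83e-05). With all libraries in 1 fit, the count of falls was 5. Herc6, Ifi35, Irf7, Isg15, Oas3, Oasl2 and Samd9l were then no longer called, and the adjusted p of Irf7 was 0.223. The neutrophil markers (10 of 10), B cell markers (8 of 8), nonclassical monocyte markers (9 of 9) and 8 of 10 epithelial markers (with 2 higher) fell in the same comparison. NK cell markers (7 of 7, from 38.6 to 44.0 CPM summed to 70.1 to 78.5 CPM) rose. Of 8 classical monocyte markers 5 rose and 3 fell, and of 7 macrophage markers 6 rose and 1 fell. Their part in these differences was not tested.

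**Figure D4:**
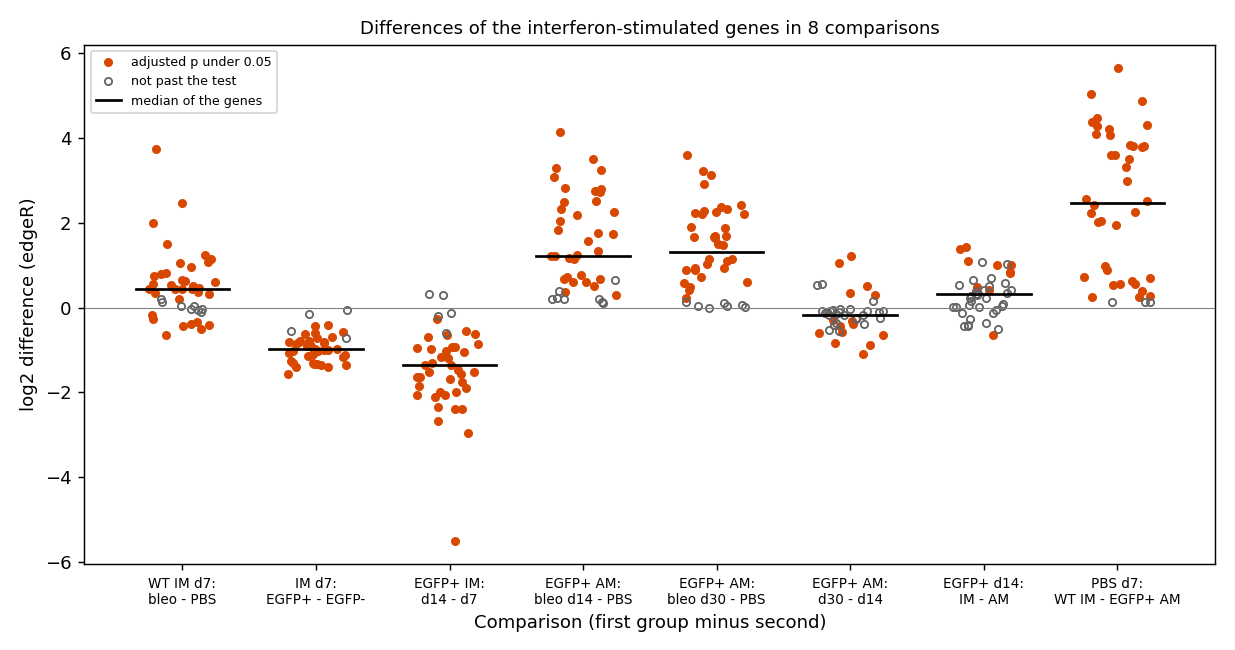
log2 differences of the interferon-stimulated genes (y) in the 8 comparisons (x, the group before the minus sign compared with the group after it). Filled points passed edgeR's test at an adjusted p under 0.05, open points did not, and the bar is the median. Calls fall on both sides of 0 for bleomycin in wild-type IMs, below 0 for EGFP+ against EGFP- IMs and for day 14 against day 7, and above 0 for AMs of days 14 and 30 against PBS.

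At day 7 of bleomycin, the interferon-stimulated genes were lower in EGFP+ than in EGFP- IMs. Of 43, 39 were lower and 0 higher, where 17.6% of the 14967 genes tested were lower and 17.2% higher. Likewise 0 were higher at an unadjusted p under 0.05, and DESeq2 called 39 lower and 0 higher. The median log2 difference was -0.98, and -0.02 over all genes, and 19 members differed by at least 2-fold. Every one of the 3 signalling and transcription factors, 6 sensors, 4 Ifit proteins, 3 members of the Isg15 system and 4 genes of the Mx and viperin group was among the lower ones. Bst2, Ifi27l2a, Ifi44 and Oas1g did not pass, with log2 differences of -0.05, -0.15, -0.71 and -0.55. For Ifi44 and Oas1g each EGFP- library still lay above each EGFP+ library, while the libraries of Bst2 and Ifi27l2a overlapped. The fit also held the EGFP+ IMs of day 14, and once these were left out Ifi44 and Oas1g passed, with none of the 39 lost.

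Oas2 measured 154, 156 and 158 CPM in EGFP- IMs and 53.7, 56.6 and 73.1 CPM in EGFP+ IMs. The EGFP- libraries lay within a narrow band far above the EGFP+ libraries, and the log2 difference was -1.40, SE 0.13 (adjusted p = 4.25e-05). Slfn8 measured 145, 150.3 and 151 CPM in EGFP- IMs and 66.7, 69.0 and 81.5 CPM in EGFP+ IMs, without overlap, a log2 difference of -1.09, SE 0.11 (adjusted p = 4.93e-05). Ifi204, a DNA sensor of the PYHIN family, measured 295, 303 and 322 CPM in EGFP- IMs and 149.9, 172 and 184 CPM in EGFP+ IMs. It did not overlap either and differed by -0.91, SE 0.10 on the log2 scale (adjusted p = 0.000108). Slfn4 differed by -1.57, SE 0.19 (adjusted p = 0.000178), Parp14 by -1.13, SE 0.16 (adjusted p = 0.000509) and Irf7 by -0.98, SE 0.24 (adjusted p = 0.011). Rsad2, which encodes viperin, an enzyme that makes a chain-terminating nucleotide, measured 406, 421 and 433 CPM in EGFP- IMs and 153, 163 and 198 CPM in EGFP+ IMs. Without a filter on low counts, Ifi47, Ifit2, Ifit3b, Irf7, Isg15, Oas1a, Oasl2 and Usp18 were no longer called, which left 31 of the 39, and Irf7 had an adjusted p of 0.0769. Leaving out any single library left 32 to 36 of the 39, and Ifi47 and Oas1a lost their call each time. All 10 neutrophil markers and 6 of 8 conventional dendritic cell markers were also lower in EGFP+ IMs, while 5 of 7 macrophage and 5 of 11 interstitial macrophage markers were higher. The sums of 10 plasmacytoid dendritic cell markers overlapped, at 171 to 189 CPM in EGFP+ and 174 to 186 CPM in EGFP- IMs. The part of these cell types in the difference was not tested.

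Wild-type IMs of day 7 of bleomycin were not split by EGFP, and for 1 member only did all their libraries lie between those of the 2 EGFP gates of reporter mice. For 19 of the 43 interferon-stimulated genes, each wild-type library lay below each library of both gates, as with Oasl2 at 93.2, 98.6 and 98.7 CPM against 125, 143 and 164 CPM in EGFP+ and 289.6, 291 and 298 CPM in EGFP- IMs. For 1 member, Ifi27l2a, the wild-type libraries lay above both gates, and for Sp100 between them. Over all 15144 genes kept, 9.67% lay below both gates, 23.7% above both and 5.89% between. This comparison was chosen after the values were seen and was not tested, and genotype and sort cannot be told apart.

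In EGFP+ IMs the level was lower at day 14 than at day 7. Of 43, 38 were lower at day 14 and 0 higher, where 26.9% of the 14967 genes tested were lower and 25.3% higher. At an unadjusted p under 0.05, 0 were higher as well, and DESeq2 called 38 lower and 0 higher. Of the falls, 28 reached 2-fold. The median log2 difference was -1.35, and 0.00 over all genes. These groups stand in different deposited tables, so the day and the table cannot be told apart. With library totals in place of trimmed-mean scaling, the median of all genes moved to -0.22, and 27.8% rather than 48.4% of all calls were rises. Bst2, Ifi27l2a, Ifi35, Oas1a and Oas1g did not pass, and without 1 library of day 14 (replicate 1) Bst2 was called higher.

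Slfn4 showed the largest fall, from 441, 484 and 600.2 CPM at day 7 to 6.32, 10.8 and 11.9 CPM at day 14. The ranges lay far apart, and the log2 difference was -5.49, SE 0.23 (adjusted p = 2.72e-08). Oas2 fell from 53.7, 56.6 and 73.1 CPM to 9.08, 10.3 and 10.5 CPM, without overlap, by -2.39, SE 0.14 on the log2 scale (adjusted p = 1.97e-07). Slfn5 fell from 186, 186 and 221 CPM to 51.4, 53.0 and 54.2 CPM. Its 3 libraries of day 14 lay close together, and its log2 difference was -1.68, SE 0.10 (adjusted p = 2.77e-07). Parp14 changed by -1.62, SE 0.17 (adjusted p = 1.88e-05) and Irf7 by -1.65, SE 0.24 (adjusted p = 0.000426). Bst2 was an exception, with 97.8, 109.8 and 128 CPM at day 7 and 80.9, 114 and 153 CPM at day 14, groups that overlapped. The day 14 libraries varied among themselves, as with Ifit2 at 4.43, 11.2 and 16.9 CPM and Isg15 at 12.1, 22.5 and 34.7 CPM. The summed neutrophil markers fell from 2147 to 2946 CPM at day 7 to 137 to 211 CPM at day 14, with 10 of 10 called lower, and 8 of 8 conventional dendritic cell markers were called lower. All 9 mitochondrially encoded genes were called higher at day 14, with a median log2 difference of 1.03, and so were 7 of 7 macrophage markers. Their part in the falls was not tested.

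In EGFP+ AMs, most of the interferon-stimulated genes were higher after bleomycin. Against PBS, 34 of the 42 members tested were higher at day 14 and 0 lower, where 27.3% of the 14706 genes tested were higher and 27.6% lower. At day 30, 35 of 42 were higher and 0 lower, where 24.8% of the 14706 genes were higher and 23.1% lower. At either day 0 were lower at an unadjusted p under 0.05. DESeq2, which tested all 43 members, called 35 higher, Ifi44 among them, and 0 lower at each day. The day 30 call of Trim30a was lost with DESeq2 and without any single library of day 30 or PBS. Both comparisons used the same 3 PBS libraries. Ifi44 was not tested with edgeR because its counts were too low. The median log2 difference was 1.23 at day 14 and 1.31 at day 30, and 25 members were higher by at least 2-fold at each day. All 4 Ifit genes rose at both days, as did 5 of the 6 oligoadenylate synthetases at day 14 and all 6 at day 30. The groups stand in different deposited tables, and bleomycin, day and table cannot be told apart. With library totals in place of trimmed-mean scaling, 32.2% rather than 49.7% of all calls at day 14 and 39.1% rather than 51.8% at day 30 were rises.

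Ifi27l2a measured 9.11, 9.19 and 10.8 CPM after PBS, 58.7, 78.3 and 79.0 CPM at day 14 and 38.4, 42.1 and 42.6 CPM at day 30. Each bleomycin library lay above each PBS library. The log2 difference from PBS was 3.08, SE 0.12 at day 14 (adjusted p = 2.44e-12) and 2.20, SE 0.12 at day 30 (adjusted p = 2.06e-10). Oasl2, a synthetase-like protein with ubiquitin-like domains, measured 1.79, 2.48 and 2.69 CPM after PBS, 15.8, 20.4 and 23.4 CPM at day 14 and 18.1, 18.4 and 19.1 CPM at day 30. It rose without overlap by 3.30, SE 0.18 on the log2 scale at day 14 (adjusted p = 1.6e-10) and 3.12, SE 0.18 at day 30 (adjusted p = 3.44e-10). Isg15 measured 3.99, 4.50 and 4.95 CPM after PBS and 15.3, 16.6 and 17.2 CPM at day 14, without overlap, a log2 difference of 2.05, SE 0.14 (adjusted p = 2.41e-09). The gene model of Isg15 differs between the deposited tables that hold these groups, at chr4:156199424-156200818 and chr4:156199455-156200796. Oas3 measured 2.44, 3.27 and 3.46 CPM after PBS and 12.9, 12.9 and 13.4 CPM at day 30, also without overlap, a log2 difference of 2.22, SE 0.17 (adjusted p = 1.57e-08). The Oas3 levels of AMs after bleomycin lay within the range of EGFP+ IMs of day 14, at 12.1, 19.0 and 20.4 CPM.

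The 3 members with the highest mean CPM were less uniform in AMs. Parp14 measured 64.4, 64.5 and 66.8 CPM after PBS, 50.4, 60.8 and 75.9 CPM at day 14 and 58.6, 60.2 and 62.2 CPM at day 30, with log2 differences of 0.12, SE 0.11 (adjusted p = 0.365) and 0.00, SE 0.11 (adjusted p = 0.991) that did not pass and changed sign with the scaling. Irf7 rose by 1.23, SE 0.20 at day 14 (adjusted p = 0.000187) and by 0.88, SE 0.20 at day 30 (adjusted p = 0.00281). Slfn4 measured 6.14, 9.19 and 10.5 CPM after PBS, 8.83, 11.6 and 13.8 CPM at day 14 and 22.4, 24.8 and 26.7 CPM at day 30. Its groups overlapped at day 14, where the log2 difference was 0.59, SE 0.19 (adjusted p = 0.0132), and did not overlap at day 30, with 1.64, SE 0.18 (adjusted p = 1.45e-06). The day 14 call of Slfn4 was lost with library totals (adjusted p = 0.0798) and without AM replicate 2 of day 14 (0.0623) or PBS replicate 2 (0.0745). Of the 10 neutrophil markers, 8 were lower and 1 higher than after PBS at day 14, when their sum was 92.1 to 112 CPM. At day 30, 7 were higher, and the sum was 559 to 644 CPM against 138 to 217 CPM after PBS, and 8 of 8 T cell markers and 5 of 5 tested fibroblast markers were higher. All 9 mitochondrially encoded genes were higher than after PBS at day 14, with a median log2 difference of 0.93, and 4 of 9 at day 30. The part of these markers in the differences was not tested.

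Between days 14 and 30 the calls in AMs went both ways, as they did over all genes. Of 42, 10 were lower and 5 higher at day 30, where 18.7% of the 14706 genes tested were lower and 19.6% higher. The members' shares were 23.8% lower and 11.9% higher. These shares are near those of all genes, so the counts are not read as a trait of the list. The median log2 difference was -0.17. With library totals, 62.4% rather than 51.2% of all calls were rises. The lower members were Eif2ak2, Ifi204, Ifi27l2a, Ifi47, Ifih1, Ifit1, Ifit2, Isg15, Samd9l and Trim30a. The higher ones were Stat2, Irf9, Mx2, Dtx3l and Slfn4, and the first pair are subunits of ISGF3.

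Ifi204 measured 77.4, 88.7 and 113 CPM at day 14 and 41.6, 45.8 and 49.7 CPM at day 30. The groups did not overlap, and the log2 difference was -1.10, SE 0.16 (adjusted p = 0.000159). Ifi27l2a, whose libraries are given above, differed by -0.88, SE 0.11 (adjusted p = 1.05e-05). Slfn4 went up by 1.04, SE 0.18 on the log2 scale (adjusted p = 0.000285). Stat2 measured 33.8, 44.0 and 49.1 CPM at day 14 and 60.3, 62.5 and 67.4 CPM at day 30, all of day 30 above all of day 14, a log2 difference of 0.52, SE 0.11 (adjusted p = 0.00156). Mx2, a dynamin-like GTPase, measured 0.809, 1.12 and 1.49 CPM at day 14 and 2.36, 2.85 and 3.22 CPM at day 30, without overlap, a log2 difference of 1.22, SE 0.35 (adjusted p = 0.0118). Irf9 measured 29.9, 32.7 and 33.2 CPM at day 14 and 40.8, 41.3 and 41.3 CPM at day 30, a small difference without overlap of 0.30, SE 0.10 (adjusted p = 0.0229). Dtx3l, a ubiquitin ligase that pairs with Parp9, measured 21.6, 27.5 and 30.4 CPM and 31.7, 33.9 and 41.0 CPM, close but without overlap, and differed by 0.35, SE 0.12 (adjusted p = 0.032). The call of Irf9 was lost without any single AM library of day 30 or replicate 1 of day 14 (adjusted p from 0.0541 to 0.0661). That of Dtx3l was lost without day 30 replicate 1 or 3 or day 14 replicate 1 (0.0544 to 0.173). The number of higher members was 3 without day 30 replicate 1 or 3, or without day 14 replicate 1. The number of lower ones was 6 without day 30 replicate 2. Neutrophil markers (9 of 10, with 1 lower), T cell markers (8 of 8) and B cell markers (8 of 8) were higher at day 30. So were 5 of 5 tested fibroblast markers, at 69.4 to 76.7 against 3.05 to 6.81 CPM summed, while 8 of 9 mitochondrially encoded genes were lower. Their part in these differences was not tested. Irf7 differed by -0.35, SE 0.20 (adjusted p = 0.184) and Parp14 by -0.12, SE 0.11 (adjusted p = 0.421), and neither passed.

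The gates were compared after PBS, wild-type IMs against EGFP+ AMs, where gate, genotype and the EGFP sort differ together. Of 42 members tested, 39 were higher in IMs and 0 lower, where 39.2% of the 15828 genes tested were higher and 39.7% lower. At an unadjusted p under 0.05, 0 were lower, and DESeq2 called 37 higher and 0 lower. The median log2 difference was 2.46. Eif2ak2, Herc6 and Ifi35 did not pass.

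Rsad2 measured 75.5, 76.2 and 80.4 CPM in IMs and 1.87, 2.47 and 2.73 CPM in AMs after PBS, a log2 difference of 5.04, SE 0.11 (adjusted p = 5.36e-18). Oas3 measured 65.7, 67.8 and 68.4 CPM in IMs against 2.44, 3.27 and 3.46 CPM in AMs, a difference of 4.47, SE 0.11 (adjusted p = 2.1e-17). For Oasl2 the levels were 63.0, 68.0 and 71.7 CPM in IMs and 1.79, 2.48 and 2.69 CPM in AMs, and the difference was 4.88, SE 0.12 (adjusted p = 2.59e-17). All 3 genes were far higher in each IM library than in any AM library. Slfn4 differed by 5.64, SE 0.16 (adjusted p = 2.17e-08), Irf7 by 3.60, SE 0.12 (adjusted p = 9.59e-11) and Parp14 by 0.73, SE 0.06 (adjusted p = 7.83e-10). All 10 neutrophil markers and 8 of 10 epithelial markers (with 2 lower) were higher in these IMs. So were 9 of 9 nonclassical monocyte markers, with sums of 5304 to 5901 CPM against 1709 to 1742 CPM in AMs. All 8 B cell, 8 T cell, 6 tested NK cell, 6 fibroblast and 5 endothelial markers were higher as well. Of 7 macrophage markers 6 were lower and 1 higher. The part of these markers in the difference was not tested.

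At day 14 of bleomycin, with both gates EGFP+ and in the same table, the gates stood closer together. Of 43 members, 9 were higher in IMs and 1 lower, where 10.8% of the 13460 genes tested were higher and 10.2% lower, and the median log2 difference was 0.33. Replicate numbers paired the libraries in this comparison, and with the replicate number as a block 12 were higher and 5 lower. With library totals, 38.3% rather than 51.3% of all calls were rises. The 9 were Bst2, Cmpk2, Ifi204, Mx1, Oasl1, Rsad2, Slfn5, Sp100 and Usp18, all of them also higher in IMs after PBS. Of the members higher in IMs after PBS, 29 did not pass at day 14 in the fit without the block. The difference between the treatments was not tested.

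Slfn5 measured 51.4, 53.0 and 54.2 CPM in IMs and 25.7, 27.7 and 32.3 CPM in AMs. The groups lay apart, and the log2 difference was 1.01, SE 0.13 (adjusted p = 0.000409). Oasl1, a brake on Irf7 translation, measured 6.96, 7.15 and 10.6 CPM in IMs and 2.29, 3.35 and 4.66 CPM in AMs, low but without overlap, a difference of 1.39, SE 0.31 (adjusted p = 0.00983). Rsad2 measured 14.7, 17.1 and 24 CPM in IMs and 7.08, 10.4 and 11 CPM in AMs, without overlap, a difference of 1.10, SE 0.25 (adjusted p = 0.0115). Samd9l, a brake on translation, was the only member called lower in IMs without the replicate block. It measured 29.4, 38.2 and 47.0 CPM against 60.2, 61.3 and 74.1 CPM in AMs, a difference of -0.64, SE 0.20 (adjusted p = 0.0454). With the block, Ddx58, Dtx3l, Eif2ak2 and Stat2 were called lower as well. Irf7 differed by 1.07, SE 0.32 (adjusted p = 0.0536) and passed with the replicate block (adjusted p = 0.000112). Slfn4 (-0.12, SE 0.26, adjusted p = 0.785) and Parp14 (0.03, SE 0.21, adjusted p = 0.95) did not pass. Single libraries weighed heavily here. The number of higher members was 17 without IM replicate 1, 5 without IM replicate 2 or 3, 4 without AM replicate 1 and 2 without AM replicate 2. The number of lower members was 3 without IM replicate 3 and 0 without IM replicate 2 or any AM library. The median fell to 0.00 without IM replicate 3, the IM library with the highest sum. Samd9l was no longer called without IM replicate 2 or any one AM library (adjusted p from 0.0832 to 0.163), and Oasl1 was not called without AM replicate 2 (0.0534).

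**Figure D5:**
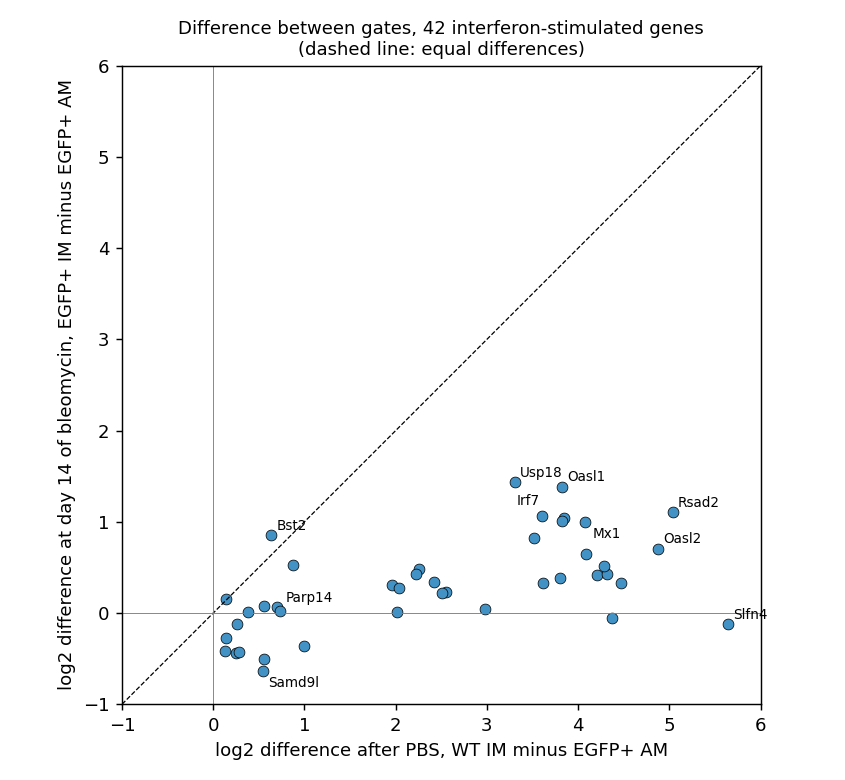
log2 difference between IMs and AMs for the 42 genes tested in both fits, after PBS (x, wild-type IMs minus EGFP+ AMs) and at day 14 of bleomycin (y, EGFP+ IMs minus EGFP+ AMs), with a dashed line of equal differences. The points spread up to 5.64 on the x axis and reach 1.43 on the y axis.

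Upstream of the list, transcripts of the type I interferons were scarce. Ifnb1, the interferon beta gene, averaged 6.08 ± 1.52 CPM (SD, n = 3) in PBS-treated wild-type IMs, with 0.07 to 0.20 CPM in every other group. It was the only ligand of 18 that had enough counts for a test. It was lower after bleomycin in wild-type IMs (log2 difference -6.17, adjusted p = 3.74e-11) and higher in wild-type IMs than in EGFP+ AMs after PBS (5.02, adjusted p = 1.24e-10). The group with this ligand transcript was therefore not the group with the highest level of the induced genes.

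The receptor genes were ordered by gate. Ifnar1 averaged 425 CPM in EGFP- IMs, 197 to 325 CPM in the other IM groups and 61.4 to 77.3 CPM in AMs. Ifnar2 averaged 120 CPM in EGFP- IMs and 35.4 to 43.3 CPM in AMs. Of 11 receptor and Janus kinase pathway genes, 7 were lower in EGFP+ than in EGFP- IMs. Those with the smallest p were Pias1, Socs1 and Ifnar2, with log2 differences of -0.46, -0.73 and -0.42 (adjusted p = 0.00236, 0.00245 and 0.00325), where 17.6% of all genes tested were lower. From day 7 to day 14 in EGFP+ IMs, 5 of the 11 were lower and 1 higher, where 26.9% of all genes were lower and 25.3% higher.

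The neighbouring list of guanylate-binding proteins, immunity-related GTPases and chemokines, most of them induced chiefly by interferon gamma, is partly shared with the type I response. In wild-type IMs, 17 of 23 rose and 3 fell after bleomycin. The smallest p-values were those of Gbp7, from 11.4 to 49.9 CPM (log2 difference 2.08, adjusted p = 6.74e-15), Ciita, the master regulator of class II genes, from 49.3 to 99.0 CPM (0.96, adjusted p = 3.31e-12), and Gbp6, from 0.92 to 9.15 CPM (3.26, adjusted p = 1.19e-11). In EGFP+ against EGFP- IMs, 17 of 23 were lower, such as Gbp5 at 52.7 against 137 CPM (-1.43, adjusted p = 0.000675). From day 7 to day 14, 16 of 23 were lower and 1 higher, and Gbp5 fell to 8.39 CPM (-2.41). In AMs, 17 of 21 rose at day 14 against PBS, with Gbp3 from 6.17 to 25.2 CPM (2.22, adjusted p = 2.3e-10), and 15 of 21 rose and 3 fell at day 30. Over all genes tested, 35.6% rose and 34.5% fell after bleomycin in wild-type IMs. In EGFP+ against EGFP- IMs, 17.6% of all genes were lower. From day 7 to day 14, 26.9% were lower and 25.3% higher. In AMs against PBS, 27.3% of all genes rose at day 14, and 24.8% rose and 23.1% fell at day 30.

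Of 12 class I antigen presentation genes, 10 rose and 1 fell after bleomycin in wild-type IMs, where 35.6% of all genes rose and 34.5% fell. In AMs of day 14, 11 of 12 rose against PBS, where 27.3% of all genes rose, and B2m went from 1558 to 2333 CPM (log2 difference 0.77, adjusted p = 1.18e-07). Between EGFP+ and EGFP- IMs, 2 were lower (Tap1 and Tap2, the peptide transporter) and 1 higher (Erap1), where 17.6% of all genes were lower and 17.2% higher. Tap1 stood at 165 CPM in EGFP+ and 260.4 CPM in EGFP- IMs (-0.71, adjusted p = 0.00955). From day 7 to day 14, 2 rose and 1 fell, where 25.3% of all genes rose and 26.9% fell. Of 18 sensing and induction genes tested, 11 were lower and 4 higher in EGFP+ than in EGFP- IMs, with Myd88 at 145 against 219 CPM (-0.65, adjusted p = 0.000718) among the lower, against the same 17.6% and 17.2% over all genes.

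Members were alike in their pattern over the 24 libraries. The correlation of each member's log2 CPM with the mean of the other members ran from 0.70 for Bst2 to 0.99 for Zbp1, with a median of 0.94, and 29 of 43 were over 0.9. These libraries share groups and sort gates, so the coefficients describe the pattern and carry no test. Among 10614 other genes with a mean of at least 5 CPM, those most like the members' mean were Tap1 (r = 0.99), Nfkbid (0.98), Irgm1 (0.97), Nlrc5 (0.97), Ifi203 (0.97), Slfn5os (0.97), Cxcl10 (0.96), Ifi209 (0.96), Tgtp2 (0.96) and Slfn1 (0.96). Slfn5os is antisense to the member Slfn5, so their reads may not be told apart.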

How the data were processed

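The authors deposited 2 tables of raw gene counts. Per the submitters' processing notes, reads were handled with FastQC 0.11.5, Trimmomatic 0.38, HISAT2 2.1.0, SAMtools and featureCounts 1.6.3 on GRCm38, and the annotation release and strand setting are not given in the sources used here. The tables hold 49585 and 55487 genes. The 49022 in both, of which 90.8% have the same model (39 of 43 members), were joined by identifier and hold at least 99.486% of each library's counts. The members whose model differs are Cmpk2, Isg15, Rsad2 and Stat2. Another 3 columns of counts matched no sample and were not used.

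CPM is the count divided by the library total and multiplied by 1000000. Tests used edgeR 4.0.16 (R 4.3.3) with trimmed-mean scaling, its filter on low counts and robust quasi-likelihood fits, with Benjamini-Hochberg adjustment over all genes tested and a threshold of 0.05. The tests within reporter IMs shared a fit of all reporter IM groups, and those within AMs a fit of all AM groups. Their p-values therefore also rest on the spread of a group outside the pair compared. The other fits held only the groups compared. The code was tested on simulated data, where the share of false calls exceeded the nominal rate in some comparisons, so calls close to the threshold are less certain than their adjusted p states. Alternatives were DESeq2 1.42.0, other scalings and filters, other sets of libraries in the fit, the replicate block and leaving out each library. Same-numbered libraries deviated together only between IMs and AMs of day 14 (r = 0.25, 0.15 and 0.20), as a hint from the data.

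Named in full were, per comparison, the 3 called members with the smallest p, members called against the majority where 5 or fewer, and the 3 members with the highest mean CPM, and for other lists up to 3 genes with the smallest p. Genes named with values outside that rule (such as Isg15, Usp18, Ifnar1, Ifng and Cxcl9) were chosen after their values were seen. 1 gene of the pathway lists is not reported here. The members and lists were chosen with earlier results of these data known.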

Additional observations from a re-analysis of the deposited data

Results flagged for a closer look

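A difference between time points was tested directly in EGFP+ AMs, where the change from PBS at day 30 was set against that at day 14. The PBS libraries cancel in that contrast, so it equals day 30 minus day 14. By edgeR's quasi-likelihood test, 10 of the 42 interferon-stimulated genes tested were lower at day 30 than at day 14 and 5 were higher. These were 23.8% and 11.9% of the members, where 18.7% of all genes tested were lower and 19.6% higher. The shares are near each other, so the counts are not read as a trait of the list. Leaving out day 30 replicate 2 gave 6 lower members, and leaving out day 30 replicate 1 or 3, or day 14 replicate 1, gave 3 higher ones. Ifi204 is an example of the first kind, with a log2 change from PBS of 2.26 at day 14 and 1.16 at day 30. Mx2 is an example of the second, with 0.65 at day 14 and 1.87 at day 30. Its counts were low, at 12, 15 and 23 in the libraries of day 14 and 16, 17 and 21 in those after PBS.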

How the results depend on the processing

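With all libraries in 1 fit, 5 members fell after bleomycin in wild-type IMs, and between IMs and AMs of day 14 there were 14 higher and 6 lower members and 2937 higher and 2969 lower genes. With only the 2 groups in the fit, 4064 genes were higher in EGFP+ than in EGFP- IMs. Library totals without scaling factors, added after the data were seen, gave 2063 higher genes at day 14 against day 7 in IMs, 2641 at day 14 against PBS in AMs, 6 lower members at day 30 against day 14 in AMs, and 4 lower members in IMs against AMs of day 14. The last count was also 4 without a filter on low counts and 5 with the replicate block. Parp14 reversed, always without passing, to -0.066 (AMs of day 14 against PBS) and -0.10 (IMs against AMs) with library totals. For AMs of day 30 against PBS, Parp14 was -0.014 with DESeq2, -0.012 with DESeq2's size factors in edgeR, -0.044 without a filter, -2.8e-05 with all libraries, -0.011 with only the 2 groups and -0.11 with library totals.

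Leaving out 1 library at a time gave these ranges. Higher members in IMs of day 14 against day 7 numbered 0 to 1. All genes in EGFP+ against EGFP- IMs numbered 1670 to 2107 higher and 1610 to 2114 lower, each lowest without EGFP+ replicate 2. In AMs of day 30 against day 14 there were 3 to 6 higher and 6 to 12 lower members. In IMs against AMs of day 14 there were 2 to 17 higher and 0 to 3 lower members, and 868 to 1529 lower genes. Parp14 ranged from -0.027 to 0.25 (AMs of day 14 against PBS), -0.019 to 0.022 (day 30 against PBS), -0.25 to 0.019 (day 30 against 14) and -0.13 to 0.22 (IMs against AMs), and Slfn4 in the last from -0.36 to 0.10. Elsewhere the replicate numbers did not pair the libraries: with the replicate block, Ifi47, Ifit2 and Isg15 were no longer called between the EGFP gates, leaving 36 lower members. Ifi44, with at most 103 counts in a library, is the member most limited by depth.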

Other observations

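Interferon gamma itself was measurable in AMs of day 30. Ifng averaged 4.05 ± 0.13 CPM there (SD, n = 3), 0.19 ± 0.16 CPM at day 14 and 0.48 ± 0.36 CPM after PBS, a log2 difference of 4.35 between the days by edgeR's quasi-likelihood test (adjusted p = 2.42e-05). Cxcl9, a chemokine that macrophages make in response to it, went the other way, from 26.2 ± 8.22 CPM at day 14 to 7.73 ± 1.74 CPM at day 30 (-1.84, adjusted p = 1.33e-05). The 8 T cell markers rose together between these days, from sums of 18.3 to 39.6 CPM to sums of 91.0 to 107 CPM, and their part in the Ifng level was not tested.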
